A study of Mus musculus with 12 samples.

Results

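The fibrillar collagen genes Col1a1, Col1a2, Col3a1, Col5a1, Col5a2 and Col5a3 encode the chains of collagen types I, III and V. These 6 genes were taken by symbol from the 22310 gene symbols of the count files, and all 6 had enough reads to be tested. The data are RNA-seq read counts of satellite cells, the stem cells of skeletal muscle, in 12 libraries of 4 groups of 3. The groups were wild type and Hoxa9 knock-out mice, each young (3 to 4 months) and old (22 to 28 months), all labelled C57BL/6. In all 4 groups barium chloride (50 µl at 1.2%, given at about 20 places) had injured the hindlimb muscles 3 days earlier, so no uninjured muscle is compared here. The labels do not say which part of Hoxa9 was deleted, whether the deletion was limited to some cells, how the cells were purified, or whether a library came from 1 animal. The p-values therefore measure the spread between these samples.

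Fibrillar collagens fold as triple helices, leave the cell as procollagens, and assemble into fibrils once their end peptides are cut off. Type I, made of alpha 1 (Col1a1) and alpha 2 (Col1a2) chains, is the main tensile collagen of tendon and muscle connective tissue. Type III, made of Col3a1 chains alone, is laid down with it in soft and healing tissue. Type V (Col5a1, Col5a2 and, in some trimers, Col5a3) is a minor collagen that starts and limits the growth of type I fibrils. In muscle, interstitial fibroblasts are the main source of types I and III. In mice, satellite cells themselves also make type V collagen, in response to Notch signalling, and it helps to hold them in quiescence.

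The 6 genes differ in the sequence features searched. The miR-29 microRNAs are textbook repressors of collagen genes, and their mature forms share the seed, bases 2 to 8, shown here in capitals from RefSeq (GRCm38.p6).
mmu-miR-29a-3p: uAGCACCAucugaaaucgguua
mmu-miR-29b-3p: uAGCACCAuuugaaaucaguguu
mmu-miR-29c-3p: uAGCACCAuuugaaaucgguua
The letters that pair with this seed, TGGTGCT, were searched on the transcript strand of the 3′ untranslated region of the longest coding transcript in GENCODE M21 (GRCm38). They occurred in 5 of the 6 genes, 4 times in Col5a1, 3 times in Col5a3, 1 time each in Col1a1, Col3a1 and Col5a2, and 0 times in Col1a2. Examples are shown with the match in capitals, with all 3 for Col5a3, the gene that later separates the genotypes.
Col1a1: ggaaggaatttcTGGTGCTatagaagct
Col3a1: aaaatgtctcaaTGGTGCTataataaat
Col5a1: acttgtctcttgTGGTGCTatgtgtccg
Col5a2: ttcttttaatgaTGGTGCTaaaattatt
Col5a3: acatgggctcctTGGTGCTgaggctctg
Col5a3: caccaggcctttTGGTGCTattcctttc
Col5a3: caggatcctacaTGGTGCTgccctgctc
Among other genes whose region was within 20% of the same length, at least 1 match was found in 22.7% for Col5a1, 7.8% for Col5a3, 13.5% for Col1a1, 9.3% for Col3a1 and 15.3% for Col5a2. None of the 2259 regions as long as that of Col5a1 held 4 matches, and none of the 2015 as long as that of Col5a3 held 3. A match of letters is a description and not a shown site of repression, and the microRNAs were not measured here.

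Start regions (250 bases before to 50 after the transcript start) were at hand for 4 of the 6 genes in RefSeq. Those of Col1a2, the most abundant chain, and of Col5a3 are printed because both hold the CCAAT box, a common promoter element, which stands in capitals on either strand (CCAAT or ATTGG).
Col1a2 (GRCm38.p6 chr6:4505368-4505667, plus strand): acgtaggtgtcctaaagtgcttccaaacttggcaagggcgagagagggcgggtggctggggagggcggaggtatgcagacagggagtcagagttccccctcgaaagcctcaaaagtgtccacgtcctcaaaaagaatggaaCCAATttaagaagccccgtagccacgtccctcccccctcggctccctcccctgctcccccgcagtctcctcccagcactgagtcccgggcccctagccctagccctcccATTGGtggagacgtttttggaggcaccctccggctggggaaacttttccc
Col5a3 (GRCm38.p6 chr9:20815018-20815317, minus strand): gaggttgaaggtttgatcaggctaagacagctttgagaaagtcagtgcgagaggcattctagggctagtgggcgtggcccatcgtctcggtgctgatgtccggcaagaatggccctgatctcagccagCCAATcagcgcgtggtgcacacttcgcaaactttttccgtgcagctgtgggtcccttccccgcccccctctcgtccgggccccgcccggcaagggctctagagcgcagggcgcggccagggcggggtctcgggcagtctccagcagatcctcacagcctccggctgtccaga
The box occurred 2 times in Col1a2, 1 time in Col5a3 and 0 times in Col3a1 and Col5a1, against at least 1 in 37.4% of all 32851 start regions. The GC box (GGGCGG or CCGCCC) was found in Col1a2, Col5a1 and Col5a3 and in 35.7% of all regions, and the TATA box (TATAAA or TTTATA) in Col3a1 and in 13.6%. TTTATG (or CATAAA), a core that Hox factors of the Hoxa9 class can bind, occurred in 0 of these 4 windows and in 11.9% of all. That says only that these letters are not in these windows.

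The libraries held 4193433 to 20337015 reads in genes, and each of the 6 genes had at least 1856 reads in every library, so counting error was small beside the spread between libraries. Hoxa9 itself stood at 10.3 ± 2.01 CPM (counts scaled to library size) in young wild type, 17.6 ± 4.27 CPM in old wild type, 6.4 ± 0.848 CPM in young and 5.80 ± 1.08 CPM in old knockout libraries (SD, n = 3 per group). Reads for it remained in every knockout library, so they check the labels only in part. Genes rich in GC had higher relative levels in each of the 6 wild-type libraries and lower ones in each of the 6 knockout libraries (Spearman's rho across genes 0.224 to 0.488 and -0.534 to -0.134; genes are not independent replicates). That trend touches each comparison between genotypes. The GC content of the 6 transcripts ran from 49.65% in Col5a2, near the middle of all genes (above 52.15% of them), over 52.5% in Col3a1, 55.67% in Col1a2, 58.02% in Col5a1 and 58.89% in Col1a1 to 61.6% in Col5a3, above 97.87% of genes. Genotype differences of the 6 genes are therefore also given with offsets that remove a per-library GC trend, and those of the gene lists as counts with these offsets. Old knockout replicates 2 and 3 stood apart with many Y-linked reads (Ddx3y at 125 and 150 CPM, 5.11 CPM or less elsewhere), and old wild-type replicate 2 and old knockout replicate 3 had the largest shares of reads outside genes, 57.1% and 70.8%. The single gene Lars2 took 0.02584% to 0.1095% of gene reads in wild-type and 0.4845% to 25.05% in knockout libraries, most in old knockout replicate 3. Whatever lies behind that cannot be told apart from the genotype.

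Most satellite cell markers were abundant in every library, with Pax7, the defining transcription factor, at 169 to 397 CPM and Des, the muscle intermediate filament, at 1520 to 2860 CPM. Chrdl2, the least abundant of that list, was at 1.74 to 40 CPM. The summed level of 12 satellite cell markers was 7232 to 10440 CPM. The defining receptor of fibroblasts and fibro-adipogenic progenitors, Pdgfra, was at 2.18 to 9.88 CPM, and Ly6a (Sca-1) at 1.28 to 3.81 CPM. Other genes of that list were more abundant, with Gsn at 442 to 1770, Lox at 117 to 337, Dpt at 38.9 to 224 and Dcn at 18.2 to 551 CPM, and the sum of all 18 was 813 to 2913 CPM. Of the 18 fibroblast markers none was at 0 in all libraries, Pi16 was at 0 in 1 library and Clec3b in 2. In bulk libraries, fewer cells of a type and less RNA per cell cannot be told apart, and the part of other cell types in the collagen reads was not tested.

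Per length, the 6 chains fell into 2 tiers, with Col1a2 and Col3a1 far above the others. In young wild type Col1a2 stood at 943 ± 121 CPM per kb of transcript and Col3a1 at 748 ± 48.0 CPM per kb (SD, n = 3). They ranked 18 and 27 among 13267 genes with a known length. Col5a2 followed at 246 ± 19.6, Col1a1 at 231 ± 58.0, Col5a1 at 231 ± 25.6 and Col5a3 at 162 ± 9.14 CPM per kb. Col1a2 and Col3a1 did not overlap there, nor did Col5a3 overlap any other chain, while Col5a2, Col1a1 and Col5a1 overlapped each other.

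The order differed between groups mainly in Col1a1 and Col5a3. In old wild type Col1a2 was at 567 ± 64.1, Col3a1 at 447 ± 30.1, Col5a2 at 203 ± 15, Col5a1 at 154 ± 4.09, Col5a3 at 153 ± 7.30 and Col1a1, now last, at 70.5 ± 14.2 CPM per kb. Only Col5a1 and Col5a3 overlapped as neighbours in that order. In young knockout the order was Col1a2 (622 ± 136), Col3a1 (569 ± 80.7), Col5a2 (202 ± 41.5), Col5a1 (168 ± 31.5), Col1a1 (106 ± 26.1) and Col5a3 (79.8 ± 12.8 CPM per kb), with overlap between neighbours except between Col3a1 and Col5a2 and between Col5a1 and Col1a1. In old knockout it was Col1a2 (786 ± 290), Col3a1 (591 ± 45.0), Col5a2 (264 ± 72.9), Col5a1 (180 ± 44.7), Col1a1 (121 ± 51.8) and Col5a3 (83.3 ± 15.7 CPM per kb), where only Col3a1 and Col5a2 did not overlap. Col1a1 was below Col1a2 in all 12 libraries, although type I trimers contain more alpha 1 than alpha 2 chain.

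**Figure D1:**
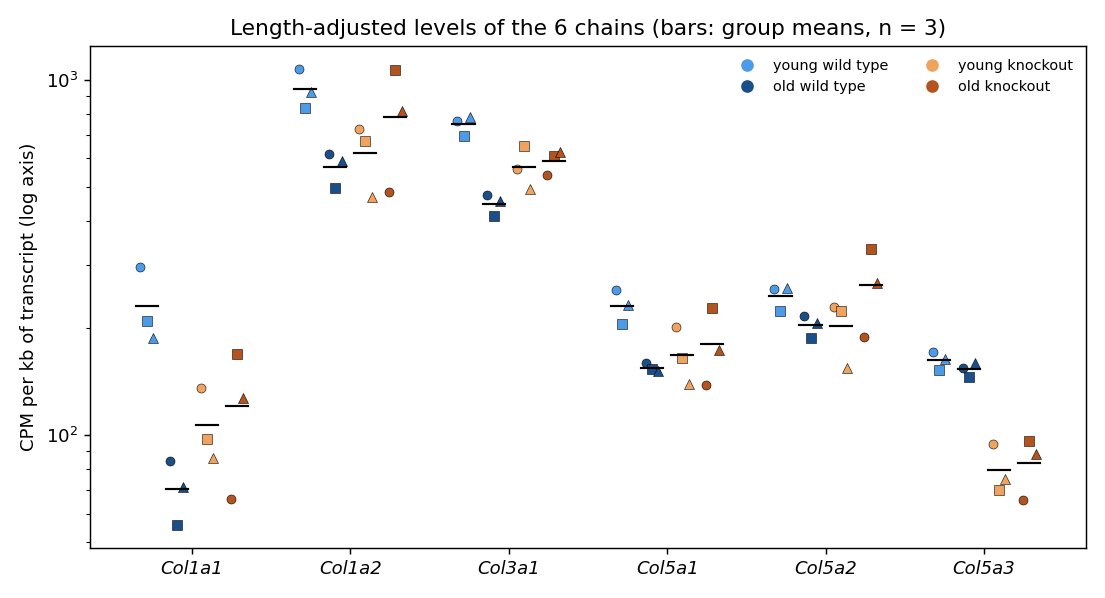
Levels of the 6 chains in CPM per kb of transcript on a log axis, 1 point per library and a bar at each group mean (n = 3). Col1a2 and Col3a1 form the upper tier in every group, and Col1a1 ranges most widely, from 70.5 CPM per kb in old wild type to 231 in young wild type on average.

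Ageing in wild type was compared to ask how the collagen transcripts of activated satellite cells change with age, and type I alpha 1 and type III were lower in old mice. Col1a1 stood at 1762, 1239 and 1113 CPM in the young libraries and at 500, 331 and 424 CPM in the old ones. All 3 old libraries lay far below all 3 young libraries. Col1a1 fell 3.28-fold, with a log2 fold change of -1.71 ± 0.32 (SE, adjusted p = 0.0284, edgeR's quasi-likelihood test).

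Col3a1 stood at 4269, 3859 and 4360 CPM in young wild-type libraries, against 2627, 2301 and 2533 CPM in old ones. The groups were well apart and each was tight, and Col3a1 fell 1.67-fold (log2 fold change -0.74 ± 0.15, adjusted p = 0.0313). Col1a2, the partner chain of Col1a1, was at 5738, 4464 and 4932 CPM in young libraries, against 3302, 2648 and 3153 CPM in old ones. Its groups did not overlap either, but the value of -0.73 ± 0.25 was not past the threshold (adjusted p = 0.187).

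The type V chains had smaller values. Col5a1 was at 2150, 1720 and 1950 CPM in young libraries, against 1337, 1286 and 1272 CPM in old ones, without overlap (-0.58 ± 0.19, adjusted p = 0.163). Col5a2 was at 1703, 1483 and 1712 against 1433, 1238 and 1370 CPM (-0.28 ± 0.20, adjusted p = 0.596), with only a narrow gap between the groups. Col5a3 was at 1045, 934 and 999 against 946, 889 and 977 CPM, overlapping groups, with a 95% interval of the log2 fold change from -0.43 to 0.26.

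In all, 2 of the 6 genes fell with age in wild type and 0 rose, where 0.805% of 13540 tested genes fell and 1.06% passed in either direction. The median over the 6 was -0.66, against 0.01 over all tested genes. Groups were apart with old lower in 5 of the 6, as in 13.8% of all genes. With GC offsets Col1a1 was at -1.66 (adjusted p = 0.0447) and Col3a1 was at -0.75 (adjusted p = 0.0607, no longer past the threshold). Neither passed when any 1 of the 6 wild-type libraries was left out: Col1a1 ranged from -1.86 to -1.49 (adjusted p 0.0608 to 0.147) and Col3a1 from -0.80 to -0.69 (0.0548 to 0.162).

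**Figure D2:**
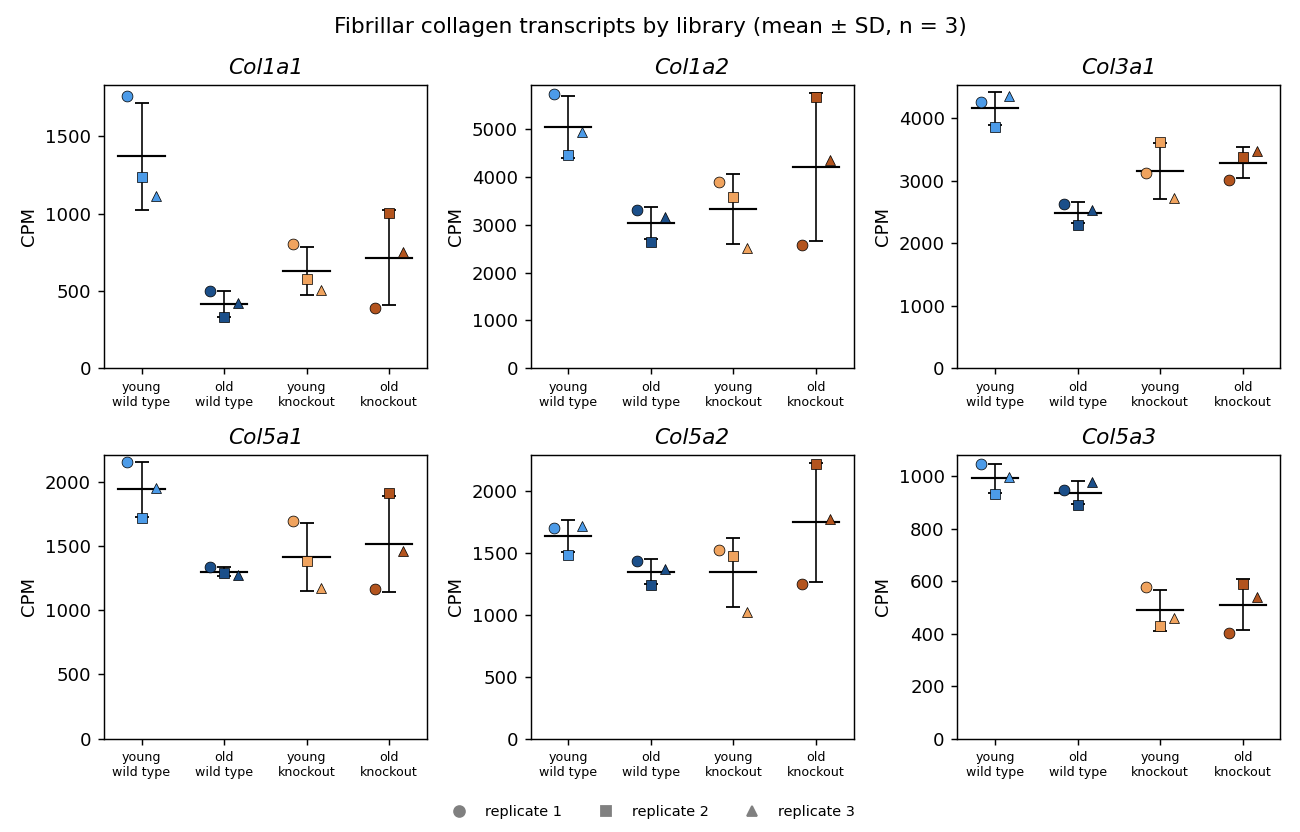
CPM of each gene in each library, with a horizontal bar at the group mean and whiskers of 1 SD (n = 3), 1 symbol per replicate number. Old wild type lies below young wild type for Col1a1 and Col3a1, and both knockout groups lie below both wild-type groups for Col5a3, at 402 to 587 CPM against 889 to 1045 CPM.

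Other genes of collagen handling were described from lists. Of 14 genes that cut and cross-link procollagen, 12 were tested and 2 fell with age in wild type. Adamts2, the main procollagen N-proteinase, fell from 71.8 ± 16.4 to 35 ± 3.47 CPM (-1.04 ± 0.16, adjusted p = 0.0094), and Loxl2, a lysyl oxidase that cross-links collagen, from 118 ± 23.5 to 58.0 ± 10.9 CPM (-1.03 ± 0.20, adjusted p = 0.0271). The list's median was -0.16, with 6 tested genes positive and 6 negative, so these 2 did not stand for the list.

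Of 18 tested genes that fold and modify procollagen, all 18 had negative values (median -0.36), and 0 passed in edgeR (7 at an unadjusted p under 0.05, 3 in DESeq2, 2 in limma-voom). Serpinh1, the collagen chaperone Hsp47, averaged 2000 ± 148 CPM in young libraries and 1430 ± 217 CPM in old ones. Of 16 genes of fibril-associated proteins 1 fell, Col16a1, a collagen that binds to fibrils (-0.90 ± 0.14, adjusted p = 0.0094), and 15 had negative values (median -0.94). Of 9 tested genes of collagen breakdown 1 fell, the gelatinase gene Mmp2 (-1.20 ± 0.23, adjusted p = 0.0299).

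None of 9 tested collagen receptors passed in edgeR (5 at an unadjusted p under 0.05, 2 in DESeq2, 0 in limma-voom). Ddr2, a receptor that fibrillar collagen activates, had a value of 0.44 ± 0.20 (adjusted p = 0.323). TGF-beta is the best known inducer of type I collagen, and its signalling was not tested here. None of 15 genes of the TGF-beta input passed (1 at an unadjusted p under 0.05, 1 in DESeq2, 0 in limma-voom). None of the 5 other fibrillar collagens passed (2 at an unadjusted p under 0.05, 1 in DESeq2, 0 in limma-voom). Col27a1, a cartilage-type chain and the most abundant of them, was at 145 ± 30.6 and 131 ± 29.5 CPM.

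Markers of other cells moved with age in wild type as follows. Among 17 tested fibroblast markers 1 fell, Cd248 (-2.16 ± 0.40, adjusted p = 0.0282), the list's median was -0.36, and the summed level was 1016 to 1148 CPM in young and 813 to 864 CPM in old libraries. Pax7 (-0.72 ± 0.14) and Fgfr4 (-0.77 ± 0.14) fell among 12 satellite cell markers, whose sum was 8970 to 10300 CPM in young and 8102 to 8784 CPM in old. Among 11 pericyte and smooth muscle markers 1 fell in edgeR, Kcnj8, with 8 at an unadjusted p under 0.05, 5 in DESeq2 and 1 in limma-voom. Values were negative for 10 of them and positive for 1 (median -0.73). Rgs5 was at 358, 214 and 143 CPM in young and 44.2, 52.1 and 45.2 CPM in old libraries, and Pdgfrb at 181, 126 and 84.7 against 45.7, 47.9 and 44.2 CPM. The summed level, in which Notch3 and Acta2 had the highest means, was 3910 to 4774 CPM in young and 3053 to 3176 CPM in old. The sum of 12 macrophage markers was 27.4 to 56.2 CPM in young and 163 to 189 CPM in old, and in young knockout replicate 1 it was 180.5 CPM. With age in wild type 0 of the 12 passed in edgeR (7 at an unadjusted p under 0.05, 2 in DESeq2, 5 in limma-voom). The part of these cells in the fall of Col1a1 and Col3a1 was not tested.

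Ageing in the knockout moved none of the 6 genes past the threshold. Col1a1 was at 805, 579 and 510 CPM in the young libraries, against 393, 1004 and 753 CPM in the old ones, and the 2 groups overlapped. The groups overlapped for the other 5 genes too, while 6.37% of all genes were apart with old higher and 5.22% with old lower. The counts were 0 of 6 in edgeR, 0 at an unadjusted p under 0.05, 0 in DESeq2 and 0 in limma-voom, where 0.0148% of all tested genes passed in edgeR. All 6 values were positive, from 0.06 for Col3a1 to 0.38 for Col5a2, but the old knockout group was split. Replicate 1 was the lowest of the 3 for all 6 genes, and replicates 2 and 3, with the Y-linked reads, lay above it. Without replicates 2 and 3 the old knockout group is 1 library, and all 6 values were negative, from -0.74 for Col1a1 to -0.12 for Col3a1, with an adjusted p of 1.

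The 95% intervals in knockout were -0.49 to 0.86 for Col1a1 and -0.26 to 0.38 for Col3a1. The wild-type changes of both genes lay below these intervals. The difference between these age effects (knockout less wild type, on the log2 scale) was 1.90 ± 0.44 for Col1a1 (adjusted p = 0.289) and 0.80 ± 0.21 for Col3a1 (adjusted p = 0.296). None of the 6 passed in edgeR, where 0.0148% of genes did (0.00739% in each direction), while 5 had an unadjusted p under 0.05, 2 passed in DESeq2 (Col1a1, adjusted p = 0.0124, and Col3a1, adjusted p = 0.0295) and 0 in limma-voom. Over 22 alternative fits the difference ran from 0.993 to 2.166 for Col1a1 and from 0.631 to 0.874 for Col3a1, so its size for Col1a1 depended on the fit. The 2 age comparisons share no libraries.

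Between genotypes in young mice, the comparison that asks what Hoxa9 loss does before old age, Col5a3 and Col1a1 were lower in knockout. Col5a3 was at 577, 427 and 461 CPM in knockout against 1045, 934 and 999 CPM in wild type. The groups were far apart, with Col5a3 2.03-fold lower (log2 fold change -1.02 ± 0.16, adjusted p = 0.00147). It passed in each of 6 fits that left out 1 library of these groups (-1.16 to -0.88). With GC offsets it was -0.54 and did not pass (adjusted p = 0.095).

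Col1a1 was at 805, 579 and 510 CPM in young knockout against 1762, 1239 and 1113 CPM in young wild type, without overlap. It was 2.17-fold lower (-1.12 ± 0.31, adjusted p = 0.0256), and -0.66 with GC offsets, where it did not pass (adjusted p = 0.261). Col1a2 (-0.60 ± 0.25, adjusted p = 0.104), Col3a1 (-0.40 ± 0.15, adjusted p = 0.0737), Col5a1 (-0.46 ± 0.19, adjusted p = 0.101) and Col5a2 (-0.28 ± 0.20, adjusted p = 0.341) did not pass in edgeR, while DESeq2 called Col3a1 as well (-0.36, adjusted p = 0.0332). In all, 2 of 6 were lower, where 10% of all tested genes were lower and 20.9% passed in either direction. For 5 of 6 genes the groups did not overlap with knockout lower, as in 19.6% of genes. With GC offsets 0 of 6 passed, where 2.11% of genes were lower. Col5a1 was then at -0.02, against -0.46 before, Col1a2 at -0.23 and Col3a1 at -0.18.

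Without young wild-type replicate 1, the library with the most Col1a1, Col1a1 was -0.90 and did not pass (adjusted p = 0.0901). It also did not pass without young wild-type replicate 2 (-1.19, adjusted p = 0.0623), young knockout replicate 2 (-1.003, adjusted p = 0.114) or young knockout replicate 3 (-0.94, adjusted p = 0.0922).

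In old mice Col5a3 was again lower in knockout, at 402, 587 and 541 CPM against 946, 889 and 977 CPM in wild type. The groups were apart, as in 20.4% of all genes with knockout lower and 21.6% with knockout higher. It was 1.84-fold lower (-0.88 ± 0.16, adjusted p = 0.00494) and passed in each of 6 fits that left out 1 library (-0.99 to -0.71). With GC offsets it was -0.52 and did not pass (adjusted p = 0.0898). In the old knockout group Col5a3 was lowest in replicate 1, and without replicates 2 and 3 it was -1.21 (adjusted p = 0.0391, with the lone library assumed to vary like the other groups).

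The other 5 genes had positive values in old mice, and none passed in edgeR. Col3a1 was at 3007, 3384 and 3481 CPM in old knockout against 2627, 2301 and 2533 CPM in old wild type, without overlap (0.40 ± 0.15, adjusted p = 0.0766). DESeq2 called it higher (0.39, adjusted p = 0.0218), as did edgeR fitted to these 2 groups alone (adjusted p = 0.0434). Col1a1, at 393, 1004 and 753 against 500, 331 and 424 CPM, had a value of 0.78 ± 0.31 (adjusted p = 0.105) and overlapping groups. Col1a2 was at 2584, 5674 and 4354 against 3302, 2648 and 3153 CPM (0.47 ± 0.25, adjusted p = 0.21). Col5a1 (1166, 1912 and 1460 against 1337, 1286 and 1272 CPM) and Col5a2 (1249, 2214 and 1773 against 1433, 1238 and 1370 CPM) were at 0.22 ± 0.19 and 0.37 ± 0.20.

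Here 1 of 6 was lower and 0 were higher, where 7.21% of tested genes were lower, 9.52% higher and 16.7% either. With GC offsets the 5 positive values were larger, from 0.44 for Col5a2 to 1.14 for Col1a1 (adjusted p = 0.062), and none passed. The positive values rested on old knockout replicates 2 and 3. Without both, Col1a1 was -0.09, Col1a2 -0.23, Col5a1 -0.15 and Col5a2 -0.10, and Col3a1 alone of the 5 kept a positive value. Without replicate 1, Col1a1 (1.095, adjusted p = 0.0176) and Col1a2 (0.75, adjusted p = 0.0405) were higher in old knockout. Without the libraries with the most reads outside genes, old wild-type replicate 2 and old knockout replicate 3, none of the 6 passed in edgeR and Col5a3 was -0.94 (adjusted p = 0.0795).

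**Figure D3:**
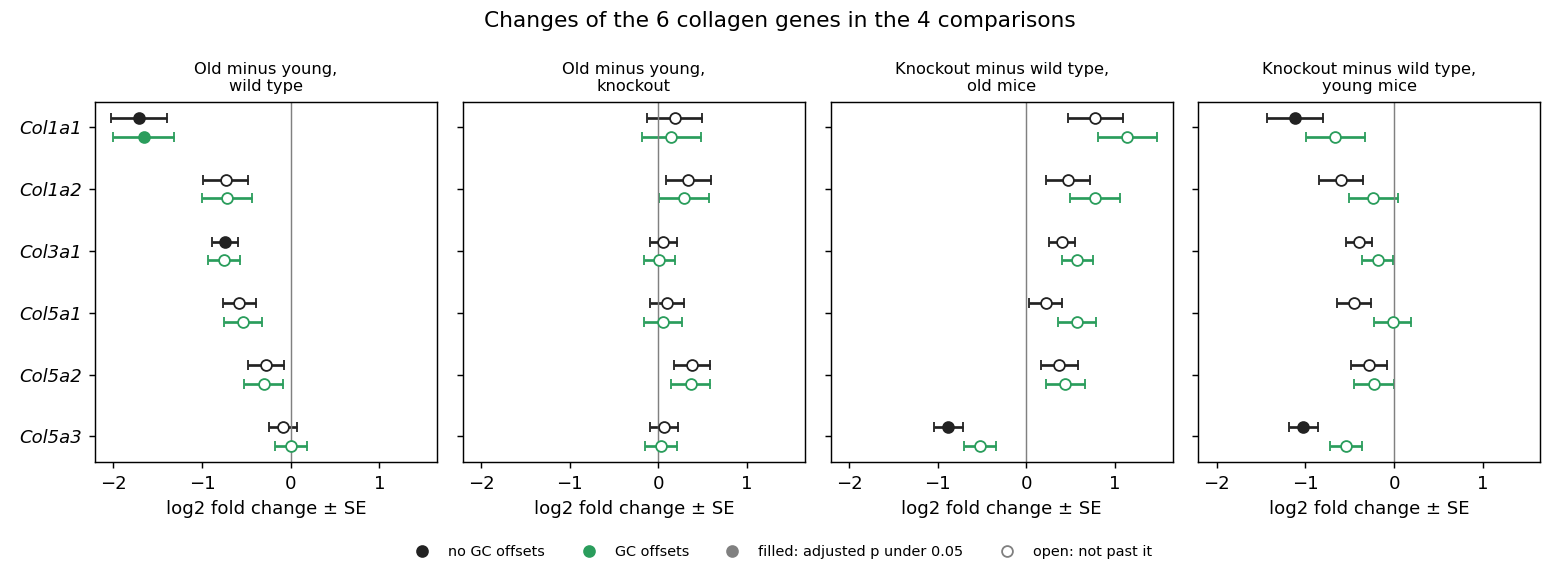
Log2 fold change with SE of each gene in the 4 comparisons, without (black) and with (green) GC offsets, filled where the adjusted p is under 0.05. The age changes in wild type barely move with the offsets (Col1a1 -1.71 and -1.66), while Col5a3 in young knockout moves from -1.02 to -0.54 and is no longer past the threshold.

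Tendon and fibroblast genes were compared between genotypes as well. Of 13 tenocyte markers 9 were higher in old knockout, where 9.52% of all genes were. Without old knockout replicates 2 and 3, 1 library would remain in that group, too few to check these calls. Tnmd, a membrane protein of tendon cells, was at 3.00, 15.7 and 45.9 CPM in old knockout against 0.246, 1.19 and 0.409 CPM in old wild type. Fmod, fibromodulin, which binds type I fibrils, was at 28.4, 145 and 415 CPM against 5.91, 7.95 and 9.94 CPM. Both were higher in replicates 2 and 3 of old knockout than in replicate 1, as Col1a1 and Col1a2 were. The order of replicates 2 and 3 differed, however. Fmod and Tnmd were highest in replicate 3, and Col1a1 and Col1a2 in replicate 2 (1004 and 5674 CPM). In replicate 2 the sum of the fibroblast markers was the lowest of the old knockout group (1115 CPM).

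The tenocyte sum was 1710 to 4629 CPM in old knockout and 2123 to 2683 CPM in old wild type, and Tnc, tenascin C, had the highest mean level in every group. The sum was 2183 to 3681 CPM in young knockout and 2598 to 3962 CPM in young wild type. In young knockout 1 of the 13 markers was higher in edgeR, Angptl7 (4.30), and 1 lower, Scx, the tendon transcription factor (-0.84, adjusted p = 0.0333). These counts were near the shares of all tested genes, 10.9% higher and 10% lower. Of the 13, 10 had positive values and 3 negative (median 1.71), with 9 at an unadjusted p under 0.05, 6 in DESeq2 and 1 in limma-voom. Fmod was at 52.3, 114 and 124 CPM in young knockout against 38.1, 29.6 and 19.9 CPM in young wild type. Tnmd was at 7.46, 30.9 and 15.2 against 5.63, 5.25 and 1.76 CPM. With GC offsets 9 tenocyte markers passed in old mice and 0 in young mice, where 6.37% and 4.87% of all genes passed in either direction. The fibroblast sum was 1115 to 2071 CPM in old knockout and 813 to 864 CPM in old wild type. Of 17 tested markers 4 were higher and 1 lower, where 9.52% and 7.21% of all genes were. In young knockout the sum was 868 to 2913 CPM, against 1016 to 1148 CPM in young wild type. Of the 17, 2 were higher and 1 lower, near the shares of all genes in young mice. With GC offsets 3 fibroblast markers passed in old mice and 0 in young mice. Kera, a tendon and cornea proteoglycan, was the only tenocyte marker at 0 in any library (1 of 12). The part of tendon cells and fibroblasts in the collagen values was not tested.

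**Figure D4:**
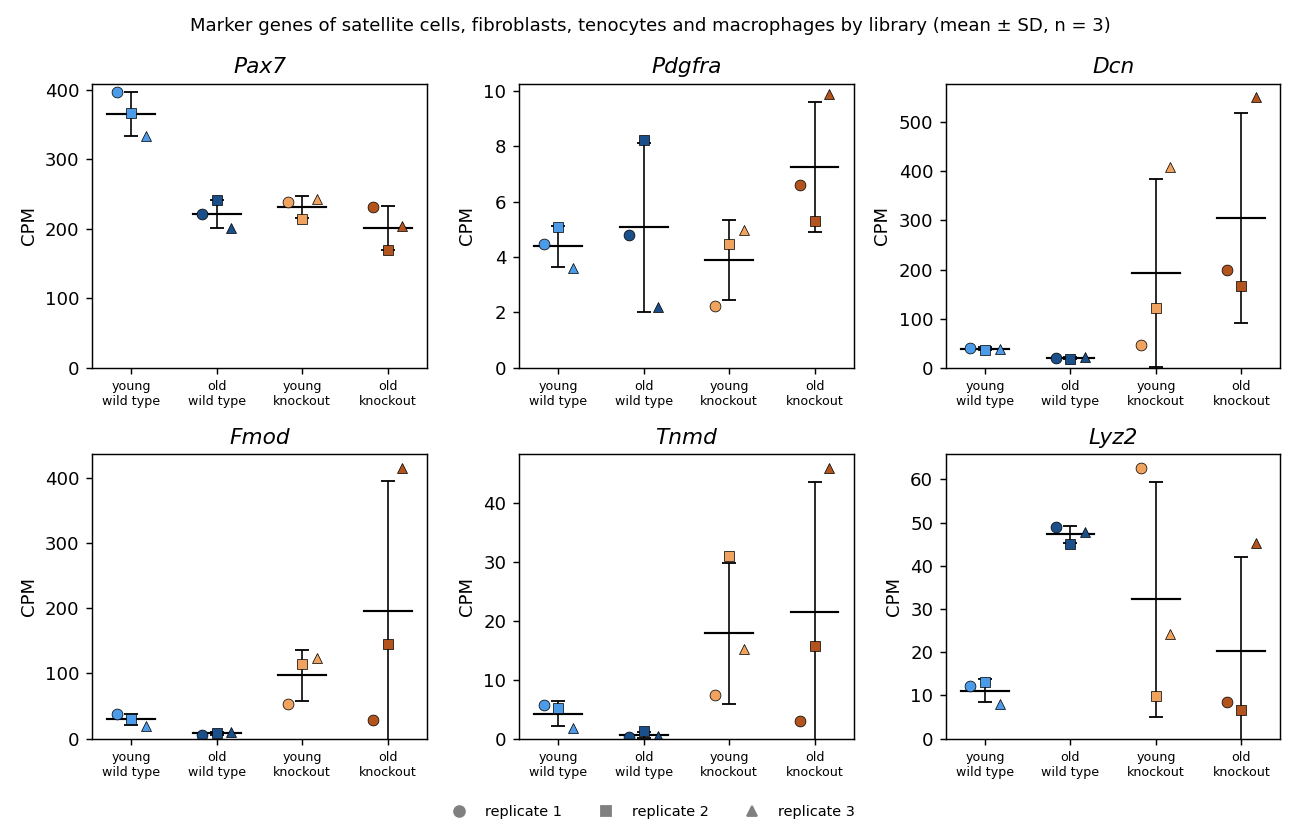
CPM of Pax7 (satellite cells), Pdgfra and Dcn (fibroblasts), Fmod and Tnmd (tenocytes) and Lyz2 (macrophages) in each library, with mean and SD (n = 3). Fmod and Tnmd are highest in old knockout replicate 3 (415 and 45.9 CPM), and Pdgfra stays under 10 CPM in every library.

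Collagen-handling genes also differed between genotypes, to be read against all genes, of which 10.9% were higher and 10% lower in young knockout and 9.52% higher and 7.21% lower in old knockout. Creb3l1, a membrane-bound transcription factor that activates type I collagen genes in osteoblasts, was lower in knockout at both ages. It averaged 48.6 ± 23.9 against 230 ± 28.3 CPM in young mice (-2.22 ± 0.29, adjusted p = 0.000971) and 65.1 ± 17.6 against 179 ± 13.0 CPM in old mice (-1.45 ± 0.29, adjusted p = 0.00818). Plod2, which hydroxylates collagen lysines for cross-linking, was higher in both, by 0.59 ± 0.14 and 0.52 ± 0.14. In the folding list 1 tested gene of 18 was higher and 1 lower in young knockout, and 2 were higher and 1 lower in old knockout. In either direction, 20.9% of all genes passed in young and 16.7% in old mice.

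Of 12 tested genes that cut and cross-link procollagen, 0 passed in young knockout in edgeR (4 at an unadjusted p under 0.05, 0 in DESeq2, 0 in limma-voom). In old knockout 3 of them were higher, Lox (0.80), Loxl2 (0.78) and Adamts2 (0.55), and 0 lower. Of 16 fibril-associated genes 2 were higher in young knockout, Ogn (2.43) and Dcn (2.31), which coat fibrils, and 2 lower, Bgn (-1.33) and Col16a1 (-0.53). In old knockout 9 of the 16 were higher, led by Kera (6.4), Comp (5.19), Fmod (4.61) and Dcn (3.93), and 0 lower. Leaving out old knockout replicates 2 and 3 would keep 1 library in that group, too few to check these calls.

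The same shares apply to the next lists, with 10.9% of all tested genes higher and 10% lower in young knockout (20.9% in either direction). In old knockout they were 9.52% and 7.21% (16.7% in either direction). Of 9 tested receptors 3 were lower in young knockout, Gpr56 (-1.35), a type III collagen receptor in mouse brain, Ddr1 (-0.78) and the uptake receptor Mrc2 (-0.53). In old knockout 3 were higher, Itga11 (1.34), Itga1 (1.30) and their partner chain Itgb1 (0.70), and 2 lower. Among 15 genes of the TGF-beta input, young knockout had 2 higher and 1 lower, and old knockout 4 higher and 2 lower. The receptor gene Tgfbr1 was higher in both (1.13 and 1.04), and Ltbp3, which binds latent TGF-beta, was lower in both (-0.75 and -0.70). Of 9 tested breakdown genes 2 were lower in young knockout, Timp1 (-0.92) and Timp2 (-0.65), and 2 higher in old knockout, Ctsk (1.54) and Mmp2 (0.97). Among the 5 other fibrillar collagens, Col11a1 was higher (3.67) and Col27a1 lower (-1.13) in old knockout, and 0 passed in young knockout in edgeR (2 at an unadjusted p under 0.05, 2 in DESeq2, 1 in limma-voom). With GC offsets the shares of all genes that passed in either direction were smaller, 4.87% in young and 6.37% in old mice. The calls in young knockout were then 1 in folding, 2 in fibril-associated genes, 1 in receptors, 2 in the TGF-beta list and 0 in breakdown. In old knockout they were 3 in folding, 4 in cutting and cross-linking, 6 in fibril-associated genes, 3 in receptors, 3 in the TGF-beta list, 2 in breakdown and 1 in other fibrillar collagens. Old knockout replicates 2 and 3 cannot both be left out to check these calls, as 1 library would remain in that group. Without old wild-type replicate 2 and old knockout replicate 3, edgeR called 0 in all 7 lists, and 3 genes in all. The 2 knockout comparisons share no libraries with each other, but each shares its wild-type libraries with the age comparison.

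Ratios between chains within a library do not depend on how libraries are scaled, and they are given without a test. Reads for Col1a1 per read for Col1a2 were 0.307, 0.278 and 0.226 in young wild type and 0.151, 0.125 and 0.135 in old wild type. The share of the alpha 1 chain was lower in all 3 old libraries, while 0.702% of other genes had a ratio to Col1a2 that was lower in all 3. Young knockout, at 0.207, 0.162 and 0.203, lay between the wild-type groups (2.11% of other genes were lower in all 3 than in young wild type). Old knockout, at 0.152, 0.177 and 0.173, overlapped young knockout.

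Col5a3 reads per Col5a1 read set the genotypes apart at both ages. The ratio was 0.486, 0.543 and 0.512 in young wild type and 0.707, 0.691 and 0.768 in old wild type. Knockout libraries had 0.340, 0.309 and 0.394 at the young age and 0.345, 0.307 and 0.370 at the old age. All 6 knockout libraries lay below all 6 wild-type libraries, as did 1.41% of other genes in their ratio to Col5a1. The log2 difference of this ratio between genotypes was -1.10 in old mice and -0.57 in young mice, and -1.10 and -0.52 with GC offsets.

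Among wild-type libraries the Col5a3 to Col5a1 ratio was higher in all 3 old libraries, but so was the ratio to Col5a1 of 61.5% of other genes. Col5a3 per Col5a2 was likewise lower in all 6 knockout libraries (0.265 to 0.450) than in all 6 wild-type libraries (0.583 to 0.718), as in 2.52% of other genes. Its log2 difference between genotypes moved with GC offsets from -0.74 to -0.31 in young mice and from -1.25 to -0.96 in old mice. Within type V, Col5a1 per Col5a2 was 1.26, 1.16 and 1.14 in young and 0.933, 1.04 and 0.928 in old wild type, without overlap (3.71% of other genes were lower in all 3 in their ratio to Col5a2). In knockout it was 1.11, 0.936 and 1.14 in young libraries, against 0.934, 0.864 and 0.823 in old ones, which touch at 0.936 and 0.934. Col5a2 per Col1a2 was 0.297 to 0.347 in young and 0.434 to 0.468 in old wild type, higher in all 3 old libraries, as in 71.5% of other genes. Col3a1 per Col1a2 overlapped between all 4 groups, with means of 0.831 ± 0.0760, 0.823 ± 0.0404, 0.969 ± 0.149 and 0.853 ± 0.287 in young wild type, old wild type, young knockout and old knockout (SD, n = 3).

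**Figure D5:**
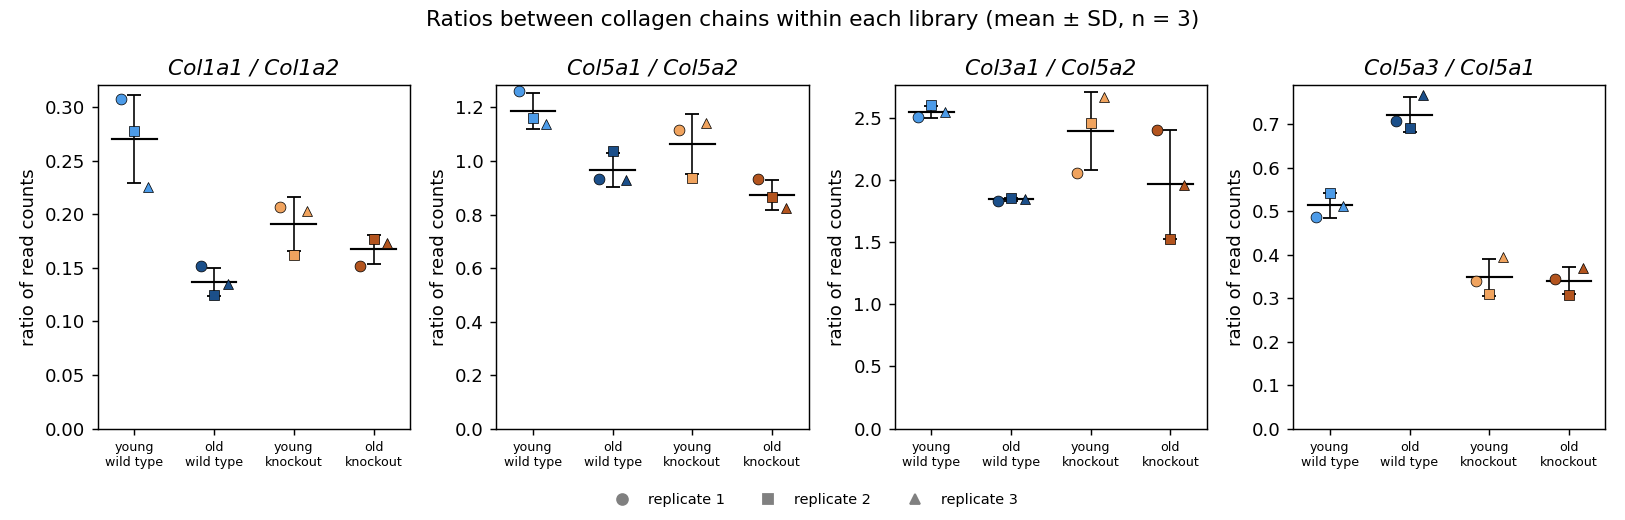
Ratios of read counts between chains within each library, with mean and SD (n = 3). Col1a1 per Col1a2 is highest in young wild type (mean 0.270), and Col5a3 per Col5a1 is below 0.4 in all 6 knockout libraries and above it in all 6 wild-type libraries.

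Across the 12 libraries the chains did not vary alike. The highest library was 5.32 times the lowest for Col1a1, 2.60 times for Col5a3, 2.29 times for Col1a2, 2.16 times for Col5a2, 1.89 times for Col3a1 and 1.84 times for Col5a1. Likeness was measured as the root mean square difference of log2 CPM centred over the 12 libraries. Col1a2 was close to Col5a1 (0.16), Col5a2 (0.20) and Col3a1 (0.25), and among 11806 other genes only 2 were closer to Col1a2 than Col5a1 was. Col1a1 was nearest to Col1a2 (0.38, with 5 other genes closer). Col5a3 was far from the other chains (0.46 to 0.73), with 2972 other genes closer to it than Col5a1, its nearest chain.

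The other genes closest to each chain were named by the same measure. For Col1a1 they were Ret (0.25), a receptor tyrosine kinase, Sema3g (0.29) and Slc2a10 (0.35), a glucose transporter family member. For Col1a2 they were Kctd11 (0.14), Camkk1 (0.16) and the imprinted gene Mest (0.17), and for Col3a1 Capn5 (0.10), Ldlrad3 (0.13) and Cnst (0.13). For Col5a1 they were Tbc1d7 (0.12), Lepre1 (0.12), which hydroxylates prolines of fibrillar collagen, and Man1c1 (0.13), and for Col5a2 Pdgfa (0.10), the ligand of Pdgfra, Atp6v0a2 (0.10) and Xpnpep1 (0.11). For Col5a3 they were 2310022A10Rik, Sap130 and Tmem184b (0.13 each). All were lower in knockout past the threshold, at -1.10, -0.71 and -0.77 in old mice and -1.03, -1.05 and -0.96 in young mice. They were chosen for likeness to Col5a3 over the same libraries, and Col5a3 was itself lower in knockout at both ages. The choice thus favoured genes lower in knockout, and these calls are not a separate result.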

How the data were processed

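The authors deposited 1 file per library with read counts for 22310 gene symbols, whole numbers without normalization, as the values show. TopHat, HTSeq, DESeq2 and the mm9 build are named without versions, per the submitters' processing notes. The library kit was a stranded total RNA kit with ribosomal RNA removal, per the labels' protocols. Whether reads were counted by strand was not stated. GENCODE M21 lists overlapping genes for 5 of the 6 collagen genes, and none of those is in the files.

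Reads outside genes (32.2% to 70.8% of the reads in genes, outside genes or ambiguous) and ambiguous reads (0.433% to 1.37%) were left out of the library sizes. After filterByExpr, 13540 genes were scaled with trimmed-mean (TMM) factors. The test was the robust quasi-likelihood F test of edgeR 4.0.16 (R 4.3.3), with 1 mean for each of the 4 groups. P-values were adjusted by Benjamini and Hochberg's method across the tested genes, with a threshold of 0.05. SE is the log2 fold change divided by the root of F, and intervals use its t quantile. GC offsets are a spline with 5 degrees of freedom per library, fitted over the 13267 of 13540 tested genes with a known GC content. Tested genes without one were given the median GC content. Of all symbols 92.3% were matched to GENCODE M21, whose longest coding transcripts gave GC content and lengths. Alternatives were DESeq2 1.42.0, limma 3.58.1 (voom), other scaling, no filter, a replicate block and left-out libraries. The fit was also run on simulated counts with the same spread setting for every gene and no GC trend. That does not show how it handles the GC trend or the split groups of these data. Replicate libraries differed beyond sampling noise.

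Members, gene lists, ratios and motifs were chosen with earlier results of these data known. Named list genes are, for each list and comparison, up to 4 past the threshold with mean log2 CPM over 1 and the largest changes, otherwise its 2 most abundant, plus Hoxa9 and the 3 genes closest to each chain. The marker genes given as checks of cell type (Des, Chrdl2, Pdgfra, Ly6a, Pi16, Clec3b) and Ddx3y were chosen after their values were seen.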

Additional observations from a re-analysis of the deposited data

How the results depend on the processing

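The 2 members called with age in wild type became 1 with library size alone, 1 with no filter, 1 with GC offsets, 4 with only the groups compared, 0 with the replicate block, 0 with the block and GC offsets, 0 without both libraries with most reads outside genes, and 0 to 2 with 1 library left out. The 1 member called between genotypes in old mice became 2 in DESeq2, 2 with only the groups compared, 0 with GC offsets, with or without the block, 0 without the libraries with most reads outside genes, and 1 to 3 with 1 library left out. The 2 in young mice became 3 in DESeq2, 1 with no filter, 0 with GC offsets, with or without the block, 1 without the libraries with most reads outside genes, and 1 to 2 with 1 left out. The 0 for the difference between age effects became 2 in DESeq2 and 0 to 1 with 1 left out, and the 0 for ageing in knockout was 0 throughout. Replicate numbers are not stated to pair animals. Correlations of same-numbered deviations were -0.261 to 0.231 over 18 pairs, against -0.345 to 0.309 over 36 pairs of unlike number. These values showed no pairing but cannot exclude it, and what a call lost under the block means was not tested. Signs turned as follows. With library size alone, Col5a3 was 0.002 with age in wild type, -0.027 with age in knockout and -0.029 in the difference between age effects, Col3a1 -0.027 with age in knockout, and Col5a1 -0.025 between genotypes in old mice. Col5a3 with age in wild type was 0.008 with GC offsets and 0.01 with the block added. Without both old knockout libraries with many Y-linked reads, ageing in knockout was -0.739 for Col1a1, -0.418 for Col1a2, -0.125 for Col3a1, -0.332 for Col5a1, -0.155 for Col5a2 and -0.331 for Col5a3. The genotype difference in old mice was then -0.085 for Col1a1, -0.225 for Col1a2, -0.147 for Col5a1 and -0.101 for Col5a2, and Col5a3 in the difference between age effects was -0.228. With 1 library left out, ageing in knockout ranged from -0.144 to 0.462 for Col1a1, -0.053 to 0.138 for Col3a1, -0.11 to 0.247 for Col5a1 and -0.054 to 0.2 for Col5a3. Per kb of coding sequence, a choice added after seeing the data, young wild-type levels were 314.6 for Col1a1, 1226 for Col1a2, 947.8 for Col3a1, 351.8 for Col5a1, 363.6 for Col5a2 and 190.3 CPM per kb for Col5a3. Over all genes, the 144 calls with age in wild type were 462 in DESeq2, 351 in limma-voom, 83 with library size alone, 913 with only the groups compared, 79 with the block, 84 with block and GC offsets and 2 without the libraries with most reads outside genes. The 2 with age in knockout were 136 in DESeq2, 13 in limma-voom and 38 with no filter. Between genotypes, 2265 calls in old mice were 863 with GC offsets, 546 with the block added, 121 without the Y-linked libraries and 3 without those with most reads outside genes, and 2831 in young mice were 1536 with only the groups compared, 660 with GC offsets and 344 with the block added. The 2 for the difference between age effects were 58 in DESeq2. The causes of these changes were not tested.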
